A study of Sus scrofa with 8 samples.

Results

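The cytosolic ribosome is built from a large and a small subunit, each made of ribosomal RNA and a fixed set of ribosomal proteins, named RPL for the large and RPS for the small subunit. The proteins are needed in equal amounts, apart from RPLP1 and RPLP2 of the acidic stalk. This stalk (RPLP0, RPLP1 and RPLP2) carries paired copies of RPLP1 and RPLP2 and recruits the factors that drive elongation. Ribosomal protein mRNAs are among the most abundant in growing cells, and they carry a terminal oligopyrimidine tract through which growth signalling by mTORC1 and the RNA-binding protein LARP1 regulates their translation. Mitochondrial ribosomal proteins (MRPL and MRPS) belong to a separate ribosome and are not part of this gene group.

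Here the genes of the cytosolic ribosomal proteins were examined in porcine pancreatic ductal organoids (PPDO). These are three-dimensional cultures grown from pancreatic duct cells of pigs of German landrace background. The study kept wild-type pigs and pigs with an INS-eGFP reporter, and the genotype behind each culture is not given. Poly(A) RNA was sequenced from 4 PPDO lines, of which Em came from embryonic, EPN1 and EPN2 from early postnatal (birth to about weaning) and LPN from late postnatal pigs (after weaning, before reproductive maturity). Each line was cultured for 7 days in complete medium (the control) and in differentiation medium, giving 4 libraries per medium and 8 in all. Differentiation medium was basal medium with N2, B27, A83-01, Y-27632, nicotinamide and N-acetylcysteine, and it lacked the EGF, FGF10, gastrin, PGE2, noggin, R-spondin and WNT3a of complete medium, whereas the inhibitors A83-01 and Y-27632 were present in both. Per the study's methods, a conditioned medium supplement (L-WRN) took the place of noggin, R-spondin and WNT3a for maintaining PPDO. Which form the sequenced complete medium cultures received is not given. Each stage other than early postnatal was represented by 1 line, so stage and line cannot be told apart.

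Members were chosen by gene name alone, as symbols made of RPL, RPS or RPLP, a number and at most a short ending such as A, X, L or L1, after rows of one gene had been summed. This gave 56 of 30282 genes, of which 26 encode large subunit proteins, 22 small subunit proteins, 3 stalk proteins and 5 paralogs (RPL3L, RPL7L1, RPL10L, RPL26L1 and RPS27L). The 55 members with a RefSeq position lie on 16 chromosomes, with 2 on the X chromosome. Of 76 standard ribosomal protein symbols, 51 were among the members and 25 were not. Of these 25, 7 were found by identifier (such as RPL14, RPL23A and RPL36A) and are given separately, and the other 18, such as RPL8 and RPS19, were matched neither by symbol nor by identifier and were not analysed here. Of the 56 members, 54 passed the filter on low counts. RPL10L, a paralog known from testis, had 1 count in the complete medium library of Em and 0 in the other libraries, and RPL3L, a paralog of striated muscle, had 0, 1, 1 and 0 counts in complete medium and 4, 2, 2 and 2 in differentiation medium, in the order Em, LPN, EPN1 and EPN2 that is kept below. A count of 3, taken as the floor, corresponded to 0.0626 to 0.0740 CPM, in which counts are scaled to the library total. The gene levels below are CPM further scaled by the trimmed mean of M values (TMM), which corrects for differences in composition between libraries.

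Libraries held 40553593 to 47910657 counts each. The ductal identity given in the labels was checked with 8 markers, all of which were detected in every library, with summed levels of 6571 to 9112 CPM in complete and 3823 to 14138 CPM in differentiation medium. Of the other marker lists, PNLIP (acinar) had 0 counts in every library, CD3E and CD163 (immune) at most 1 and 2, and CDH5 (endothelial) at most 1. The 8 stromal markers summed to 147 to 420 CPM in complete and 216 to 542 CPM in differentiation medium, of which THY1 held 6484 to 25835 counts per library and DCN at most 8. The 6 endothelial markers summed to 21.9 to 34.9 and 16.3 to 44.7 CPM, and the 8 immune markers to 29.3 to 59.7 and 10.1 to 95.2 CPM. The 5 acinar markers in the table summed to 124 to 156 and 148 to 319 CPM, nearly all from CTRC, and the 7 endocrine markers to 0.144 to 2.40 and 0.0701 to 21.4 CPM.

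The ribosomal protein genes as a group took a smaller share of the library in differentiation medium than in complete medium in each of the 4 lines. In complete medium the 56 genes held 4.75% of all counts in Em, 4.53% in LPN, 5.18% in EPN1 and 3.41% in EPN2. In differentiation medium they held 3.35%, 3.52%, 3.59% and 3.04%. The mean was thus 4.47% ± 0.754 (SD, n = 4) in complete and 3.37% ± 0.242 (SD, n = 4) in differentiation medium. The ranges overlapped only through EPN2, whose complete medium library lay below the differentiation medium libraries of LPN and EPN1. Without EPN2, the lowest complete medium share was 4.53%. Within lines, the share differed by -29.5% in Em, -22.3% in LPN, -30.7% in EPN1 and -10.7% in EPN2. Adding the 7 genes known by identifier gave 5.18% ± 0.862 against 3.92% ± 0.280 (SD, n = 4 each).

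**Figure D1:**
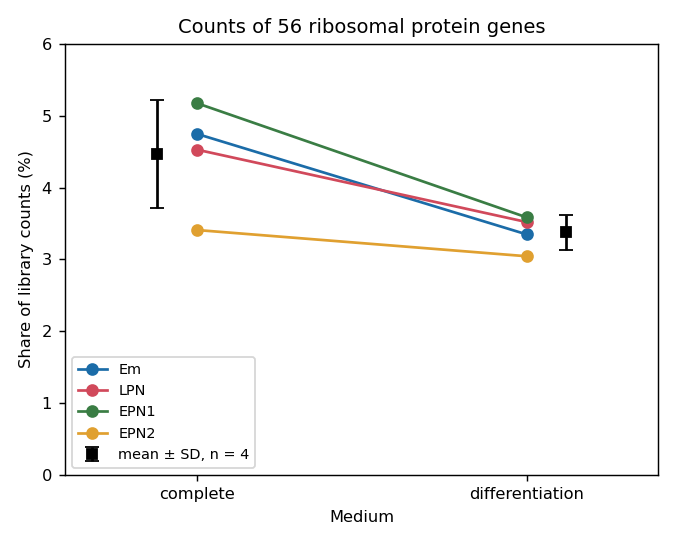
Share of all library counts (%) held by the 56 ribosomal protein genes in complete and differentiation medium, with a line joining the libraries of each PPDO line and black squares for the mean ± SD (n = 4). The share is lower in differentiation medium in each line, and EPN2 starts lowest, at 3.41%.

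On the TMM-scaled CPM scale, the summed level of the members was 47184, 44769, 53264 and 35441 CPM in complete and 33100, 33873, 33740 and 32560 CPM in differentiation medium. The complete medium libraries were thus spread widely, with EPN1 highest and EPN2 lowest. On this scale the 4 differentiation medium libraries lay close together at 33318 ± 608 CPM (SD, n = 4). That closeness depended on the scaling. Their shares without TMM ran from 3.04% in EPN2 to 3.59% in EPN1, with TMM factors of 0.935 and 1.06. EPN2 was the lowest complete medium library for 51 of 54 members and EPN1 the highest for 46. In differentiation medium EPN2 was the lowest for 27 and the highest for 16. The median SD of log2 CPM over the 4 lines was 0.26 in complete and 0.09 in differentiation medium for the members, against 0.35 and 0.37 for all genes tested. Other features also moved with the medium. The 20 most abundant genes of each library took 14.5% to 15.9% of counts in complete and 12.1% to 13.4% in differentiation medium, and 11 proliferation markers, which label dividing cells, summed to 356 to 767 CPM in complete and 185 to 607 CPM in differentiation medium. None of these 11 was called by edgeR, and 4 were lower when lines were blocked. The part of composition and proliferation in the result was not tested. In bulk RNA, fewer cells of a type and less RNA per cell cannot be told apart.

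Gene by gene, the fold changes were negative and similar in size for most members. In edgeR's quasi-likelihood test the median log2 fold change (differentiation against complete medium) was -0.42 over the 54 members, a decrease of 25.4%, against 0.01 over all 14475 genes tested. Of the members, 50 had a negative and 4 a positive fold change, whereas 7139 of all genes were negative. The middle 50% of the members spanned 0.19 on the log2 scale, against 0.79 for all genes. The large subunit genes had a median of -0.48 (26 genes), the small subunit genes -0.41 (22 genes), the stalk genes -0.32 (3 genes) and the 3 paralogs tested 0.05. The ratio of the summed large to the summed small subunit level was 1.16 ± 0.032 in complete and 1.13 ± 0.010 in differentiation medium (SD, n = 4). The stalk genes, which belong to the large subunit, and the paralogs were left out of this ratio.

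At an adjusted p under 0.05 (Benjamini-Hochberg over all genes tested), 4 of 54 members fell (7.41%), against 4.1% of all genes, and none rose, against 2.87%. All 4 were large subunit genes, namely RPL24, RPL26, RPL23 and RPL3. At an unadjusted p under 0.05, 36 members were lower, or 66.7%, against 14.3% of all genes, and none was higher. DESeq2 called 24 members lower, against 10.0% of all genes, and 0 higher. With the line as a block, edgeR called 11 members lower, against 10.4% of all genes, and DESeq2 called 34, against 18.0%. The 11 of edgeR held the 4 above and also the small subunit genes RPS6, RPS15A, RPS3 and RPS3A. Without the complete medium library of EPN2, edgeR called 24 (background 4.93%), and without EPN2 in either medium 19 (background 4.78%). Leaving out any other library left no member called. Calls over all genes also varied widely over these refits, as given in the last section. The refits that left out libraries did not block by line, and none was run with the block. Without the block, the number of called members thus turned on single libraries. The median fold change of the members stayed between -0.32 and -0.53 under all alternatives.

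**Figure D2:**
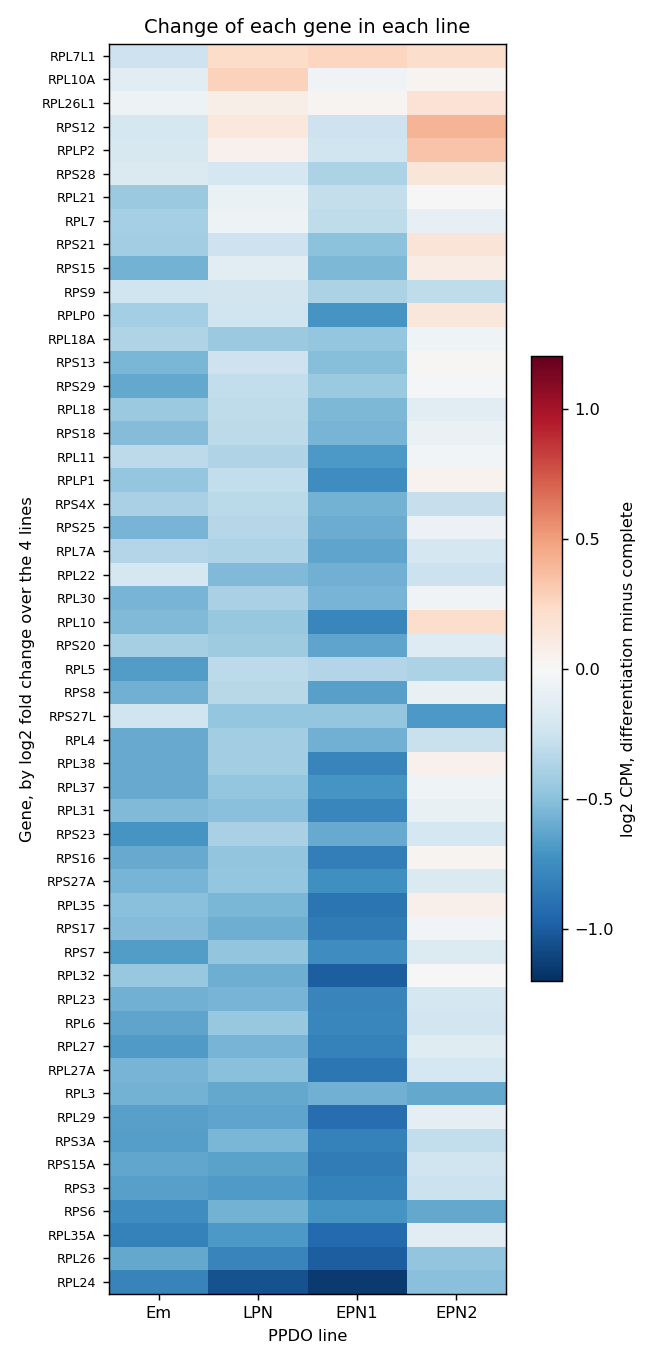
Heat map of the log2 change in CPM from complete to differentiation medium for tested members (rows, ordered by their fold change over the 4 lines) in each PPDO line (columns), blue for lower and red for higher in differentiation medium. Nearly all cells are blue in Em, LPN and EPN1, and EPN2 is paler, with 16 members higher.

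Each line holds a comparison of its own, since it was cultured in both media. The median member differed by -0.54 in Em, -0.42 in LPN, -0.63 in EPN1 and -0.09 in EPN2 on the log2 CPM scale, while the median of all genes stayed between -0.01 and 0.01. In Em all 54 members were lower, in LPN 49, in EPN1 52 and in EPN2 38. Of all genes tested, 49.6% to 50.7% were lower in a line. Over the 4 lines, 38 of 54 members (70.4%) were lower in every line, against 24.2% of all genes. For 26 members (48.1%) the differentiation medium range lay wholly below the complete medium range, against 9.96% of all genes. These counts share the libraries of the test above and are not separate evidence.

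RPL24 is a large subunit protein that forms a bridge to the small subunit (gene at chr13:157411933-157418663 in RefSeq Sscrofa11.1). Its level was 563, 594, 703 and 398 CPM in complete and 324, 287, 317 and 282 CPM in differentiation medium. The groups did not overlap, and EPN2 was lowest in each. The log2 fold change was -0.90 ± 0.18 (SE, edgeR adjusted p = 0.0313), the largest decrease among the members.

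RPL26 lies at the exit of the tunnel for the nascent peptide and is modified by the ubiquitin-like protein UFM1 (chr12:53548313-53553453). It was measured at 776, 865, 1020 and 634 CPM in complete and 505, 499.5, 513 and 455 CPM in differentiation medium. Every differentiation medium library lay below every complete medium library. The log2 fold change was -0.74 ± 0.16 (SE, edgeR adjusted p = 0.0401).

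RPL23, a large subunit protein that can also bind MDM2 (chr12:23279965-23285538), had 924, 926, 1021 and 764 CPM in complete and 621, 627, 588 and 662 CPM in differentiation medium. The groups did not overlap, and EPN2 was lowest in complete and highest in differentiation medium. The log2 fold change was -0.54 ± 0.13 (SE, edgeR adjusted p = 0.0491).

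RPL3, which reaches towards the peptidyl transferase centre (chr5:8922697-8929768), had 1307, 1294, 1320 and 1058 CPM in complete and 882, 845, 882 and 693 CPM in differentiation medium. EPN2 was low in each medium, and the groups did not overlap. The decrease was nearly the same in the lines, from -0.57 to -0.61 on the log2 scale, and the fold change over all libraries was -0.59 ± 0.15 (SE, edgeR adjusted p = 0.0495). Each of these 4 calls was lost on leaving out any 1 library other than the complete medium library of EPN2. The adjusted p-values of edgeR then reached up to 0.0945 for RPL24, 0.113 for RPL26, 0.146 for RPL23 and 0.141 for RPL3. These refits did not block by line. When lines were blocked with all libraries kept, the edgeR adjusted p was 0.0197 for RPL24, 0.0232 for RPL26, 0.0483 for RPL23 and 0.0231 for RPL3.

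RPS6, the small subunit protein phosphorylated by the S6 kinases downstream of mTORC1, lay just outside the threshold. Its levels were 1604, 1406, 1640 and 1167 CPM in complete and 956, 946, 1002 and 763 CPM in differentiation medium. All differentiation medium libraries were lower than all complete medium libraries, and the log2 fold change was -0.67 ± 0.16 (SE, edgeR adjusted p = 0.0512, and 0.0209 when lines were blocked).

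**Figure D3:**
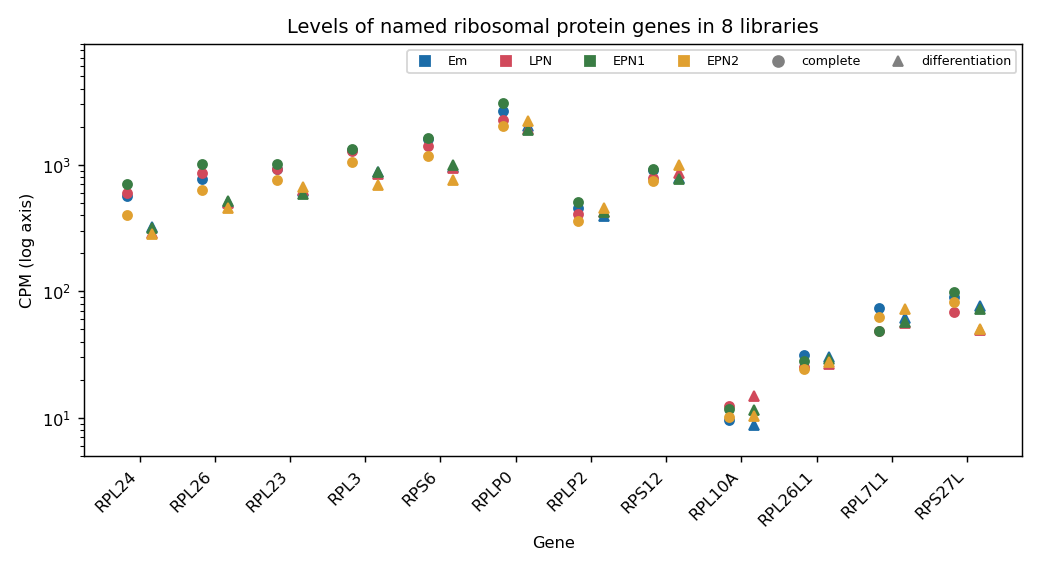
Level (CPM, log axis) of 12 named ribosomal protein genes in the 8 libraries, with circles for complete and triangles for differentiation medium and a colour for each PPDO line. RPL24, RPL26, RPL23, RPL3 and RPS6 are lower in differentiation medium without overlap, whereas the media overlap for the stalk genes, RPS12, RPL10A and the paralogs.

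The stalk genes did not pass the test. RPLP0, which anchors the stalk, had 2656, 2248, 3059 and 2017 CPM in complete and 2008, 1902, 1868 and 2222 CPM in differentiation medium. The groups overlapped, since EPN2 was lowest in complete and highest in differentiation medium. The log2 fold change was -0.32 ± 0.17 (SE, edgeR adjusted p = 0.269). RPLP1 overlapped through EPN2 too, with 1622, 1405, 1765 and 1036 CPM against 1179, 1147, 1053 and 1069 CPM and a fold change of -0.39 ± 0.18 (SE, edgeR adjusted p = 0.213). RPLP2 had 453, 409, 505 and 359 CPM against 397, 425, 427 and 455 CPM, lower in Em and EPN1 and higher in LPN and EPN2, with a fold change of -0.02 ± 0.14 (SE, edgeR adjusted p = 0.943). The stalk genes together made up 9.07% to 10.0% of the members' summed level in complete and 9.92% to 11.5% in differentiation medium.

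The members with a positive fold change were RPL7L1, RPL26L1, RPL10A and RPS12, and none passed the test. RPL7L1, a relative of RPL7, had 73.6, 48.3, 48.2 and 62.5 CPM in complete and 62.0, 56.4, 57.6 and 72.4 CPM in differentiation medium. It was lower in Em and higher in the other lines, and the log2 fold change was 0.10 ± 0.17 (SE, edgeR adjusted p = 0.750). RPL26L1 lay between 24.2 and 31.3 CPM in all 8 libraries, with its highest and lowest value both in complete medium (0.05 ± 0.13, SE, edgeR adjusted p = 0.821). RPL10A, of the mobile stalk where spent tRNA leaves, was assigned only 8.75 to 14.9 CPM over all libraries, with a fold change of 0.05 ± 0.21 (SE, edgeR adjusted p = 0.895). The median member lay between 510 and 811 CPM in the libraries. Whether reads of RPL10A were assigned to other rows was not examined.

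RPS12, a small subunit protein, had 912, 790, 923 and 745 CPM in complete and 789, 861, 775 and 987 CPM in differentiation medium. It was lower in Em and EPN1 and higher in LPN and EPN2, and the ranges overlapped almost fully. The log2 fold change was 0.02 ± 0.14 (SE, edgeR adjusted p = 0.951).

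Paralogs were set beside their parent genes. Whether reads were shared between a paralog and its parent was not examined. RPL26L1 had a fold change of 0.05 where RPL26 had -0.74, and RPL7L1 had 0.10 where RPL7 had -0.22 ± 0.14 (SE, edgeR adjusted p = 0.345). These differences between genes were not tested. RPL10, the parent of RPL10L and a late-joining protein of the large subunit, had 1517, 1579, 1889 and 1074 CPM against 1050, 1151, 1096 and 1245 CPM (-0.42 ± 0.19, SE, edgeR adjusted p = 0.197). It was lower in differentiation medium in Em, LPN and EPN1 and higher in EPN2. RPS27L, a paralog of RPS27 induced by p53, had 89.9, 68.3, 99.0 and 81.8 CPM against 76.3, 49.6, 71.9 and 50.7 CPM, lower in every line with overlapping ranges (-0.45 ± 0.19, SE, edgeR adjusted p = 0.174, and 0.0389 when lines were blocked).

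The members also differed in how much they varied between lines in complete medium. Among members of at least 50 CPM, RPS18, RPL21 and RPL7 had the smallest SD of log2 CPM over the 4 complete medium libraries, at 0.14, 0.14 and 0.15. RPL38, RPL35 and RPL35A had the largest, at 0.38, 0.38 and 0.41. RPL35A, mutated in some cases of Diamond-Blackfan anaemia, had 501, 491, 586 and 304 CPM in complete and 286, 305, 306 and 278 CPM in differentiation medium, so that its spread in complete medium came from the low EPN2 library (-0.68 ± 0.20, SE, edgeR adjusted p = 0.0773, and 0.0468 when lines were blocked). RPL38, known for its role in the patterning of the skeleton, had 344, 308, 383 and 209 CPM against 226, 231, 221 and 217 CPM (-0.48 ± 0.18, SE, edgeR adjusted p = 0.146). RPL35 had 650, 709, 815 and 439 CPM against 458, 484, 445 and 457 CPM (-0.50 ± 0.19, SE, edgeR adjusted p = 0.140). For RPL38 and RPL35 the EPN2 library in complete medium lay below all differentiation medium libraries.

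The gene with the steadiest level in complete medium, RPS18, had 738, 727, 807 and 641 CPM against 515, 585, 549 and 608 CPM, without overlap (-0.37 ± 0.13, SE, edgeR adjusted p = 0.112). RPL21 was at 560, 464, 476 and 446 CPM in complete and 410, 440, 390 and 448 CPM in differentiation medium, overlapping through EPN2 (-0.21 ± 0.12, SE, edgeR adjusted p = 0.315).

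The sum of squares of log2 CPM was divided between lines, media and what was left. For the median member 24.5% lay between lines and 57.3% between media, and for the median of all genes tested 49.3% and 24.4%. RPL23 had 84.2% between media, whereas RPL10A and RPL26L1 had 87.5% and 80.7% between lines. RPS28, of the small subunit, had 60.0% between lines. RPS12 had 2.29% between lines and 0.403% between media, and nearly all of the rest was difference between media that went in opposite directions in different lines.

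**Figure D4:**
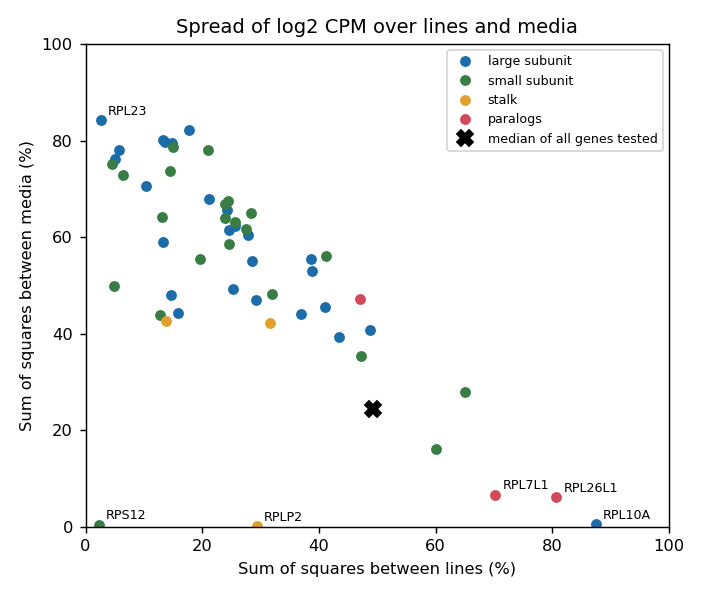
Share of the sum of squares of log2 CPM that lay between PPDO lines (x axis, %) and between media (y axis, %) for each of the 54 tested members, coloured by class, with a cross for the median of all genes tested. Most members lie high on the left, at more variation between media than the median gene, and RPL10A, RPL26L1 and RPL7L1 lie at the lower right.

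Relative to the median member of the same line, 10 members lay above it in 4 of 4 lines and 14 below it. Among those above it were RPL21, RPL26L1, RPL7L1, RPLP2, RPS12 and RPS18, and also RPL10A at its low assigned level. RPLP2 exceeded the median member by 0.35 to 0.47 and RPS12 by 0.33 to 0.54 on the log2 scale. Below it were RPL6, RPL23, RPL24, RPL26, RPL27, RPL27A, RPL29, RPL35A, RPS3, RPS3A, RPS6, RPS7, RPS15A and RPS27A. RPL24 lay 0.26 to 0.63 and RPL26 0.08 to 0.39 below it. This is a description of order within the group, with no test. Since levels were scaled to the library, the values do not give the amounts of mRNA per cell.

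Of the 7 ribosomal protein genes known only by identifier, 7 had negative fold changes, with a median of -0.51. RPL36A, whose entry in the name table is a readthrough with HNRNPH2, had 359, 401, 485 and 329 CPM in complete and 234, 233, 225 and 218 CPM in differentiation medium, without overlap (-0.79 ± 0.14, SE, edgeR adjusted p = 0.0234), a call lost on leaving out 5 of the 8 libraries in turn. The other 6 did not pass the test, from -0.19 for RPL28 to -0.61 for RPL23A, although RPL14 had an edgeR adjusted p of 0.0915, and 0.0335 when lines were blocked. With these genes, 5 of 61 were called lower. Of the ribosomal proteins whose symbols fall outside the name rule, RPSA had a fold change of -0.31, FAU, which encodes a ubiquitin-like protein fused to a small subunit protein, also -0.31 (edgeR adjusted p = 0.228), and RACK1, a signalling scaffold on the small subunit, -0.53 (edgeR adjusted p = 0.0735, and 0.0414 when lines were blocked). RPL36AL, a copy of RPL36A, had -0.47 (edgeR adjusted p = 0.0896, and 0.0236 when lines were blocked).

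Other parts of the translation machinery were compared by the same fit, with no test of the lists. Of all genes tested, 4.1% fell and 2.87% rose, and 10.4% fell when lines were blocked. The blocked fit of edgeR called 2884 of the 14475 genes in either direction, of which 1512 fell and the others rose. At an unadjusted p under 0.05 without the block, 3954 of the 14475 genes passed in either direction. The call of each gene named below that passed without the block was lost on leaving out 4 to 8 of the 8 libraries in turn. The elongation factors had a median log2 fold change of -0.30 over 5 genes tested, and 1 fell, or 2 when lines were blocked (EEF1G and EEF1B2). EEF1G, a subunit of the factor that reloads EEF1A with GTP, had 1283, 1423, 1552 and 1203 CPM in complete and 831, 869, 731 and 946 CPM in differentiation medium, without overlap (-0.69 ± 0.15, SE, edgeR adjusted p = 0.0350). EEF2, which moves the ribosome along the mRNA, had -0.30 (edgeR adjusted p = 0.362) and TPT1, whose mRNA also carries an oligopyrimidine tract, 0.09 (edgeR adjusted p = 0.757). The 32 initiation factors had a median of -0.20, with 0 called by edgeR, 10 at an unadjusted p under 0.05, and 6 lower and 1 higher with the line as a block.

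Of 73 ribosome biogenesis genes, 7 fell and none rose, against 4.1% and 2.87% of all genes, and the median was -0.09. When lines were blocked, 10 fell, against 10.4% of all genes, and 1 rose. The medians by line differed in sign, at -0.42 in Em, -0.07 in LPN, 0.22 in EPN1 and -0.21 in EPN2. UTP18, of the complex that processes small subunit precursors, had 27.1, 29.3, 28.4 and 25.3 CPM in complete and 14.1, 15.8, 18.1 and 15.8 CPM in differentiation medium (-0.79 ± 0.13, SE, edgeR adjusted p = 0.0189). NOP53, a factor of large subunit maturation, had 299, 280, 311 and 213 CPM against 171, 146, 145 and 135 CPM (-0.88 ± 0.15, SE, edgeR adjusted p = 0.0204). Neither gene's ranges overlapped. The nucleolar proteins NCL and FBL had fold changes of 0.13 and -0.42 and did not pass the test (edgeR adjusted p = 0.661 and 0.183).

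Of 33 genes of RNA polymerases I and III and their factors, 1 fell and 3 rose, with a median of -0.11. When lines were blocked, 3 fell and 3 rose, against 2884 of all 14475 genes called in either direction, of which 1512 fell. TAF1B, of the polymerase I selectivity factor, fell by 0.55 on the log2 scale (edgeR adjusted p = 0.0490). BRF1 and GTF3C4, which act in polymerase III transcription, rose by 0.48 each (edgeR adjusted p = 0.0423 for both). UBTF, the upstream binding factor of polymerase I, rose by 0.72 ± 0.17 (SE, edgeR adjusted p = 0.0446), from 65.9, 77.7, 46.5 and 68.7 CPM to 92.4, 116, 103 and 116 CPM, which did not overlap. These 4 genes therefore did not move in a common direction.

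The 14 chaperones and importers of ribosomal proteins had a median of -0.04, with 0 called by edgeR. With the line as a block 1 was lower. At an unadjusted p under 0.05 there were 4, against 3954 of all 14475 genes. Of 22 ribosome quality control genes, 1 fell (HABP4, -0.80, edgeR adjusted p = 0.0308), with a median of -0.15, and 2 fell when lines were blocked. Of 24 genes of growth signalling and oligopyrimidine binding, 1 rose, with a median of 0.05. When lines were blocked, 2 rose, where 2884 of all 14475 genes were called in either direction and 1512 of them fell. The gene called without the block was MXD4, a repressor that shares the partner MAX with MYC (0.84 ± 0.15, SE, edgeR adjusted p = 0.0243). MYC, which drives transcription of ribosome genes, had 225, 120, 90.5 and 133 CPM against 70.9, 90.9, 90.5 and 92.5 CPM, lower in Em, LPN and EPN2 and level in EPN1 (-0.72 ± 0.27, SE, edgeR adjusted p = 0.134). LARP1 had a fold change of 0.03, which turned negative without the line EPN2 (edgeR adjusted p = 0.931).

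The mitochondrial ribosomal protein genes, which form a separate ribosome, had a median of -0.04 over 65 genes tested. Of these, 4 fell and 1 rose, or 4 and 2 when lines were blocked. With the block, 2884 of all 14475 genes were called, of which 1512 fell. The medians of the mitochondrial list are given next. Their medians by line were -0.21 in Em, -0.03 in LPN, 0.05 in EPN1 and 0.03 in EPN2, and their summed levels were 1757 to 2022 CPM in complete and 1714 to 1840 CPM in differentiation medium. MRPL45 fell by 1.07 and MRPL37 by 0.47 on the log2 scale (edgeR adjusted p = 0.0300 and 0.0399), and MRPL10 rose by 0.65 (edgeR adjusted p = 0.0379). The other genes that fell were MRPS9 and MRPL54. The difference between the cytosolic and mitochondrial lists was not tested.

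**Figure D5:**
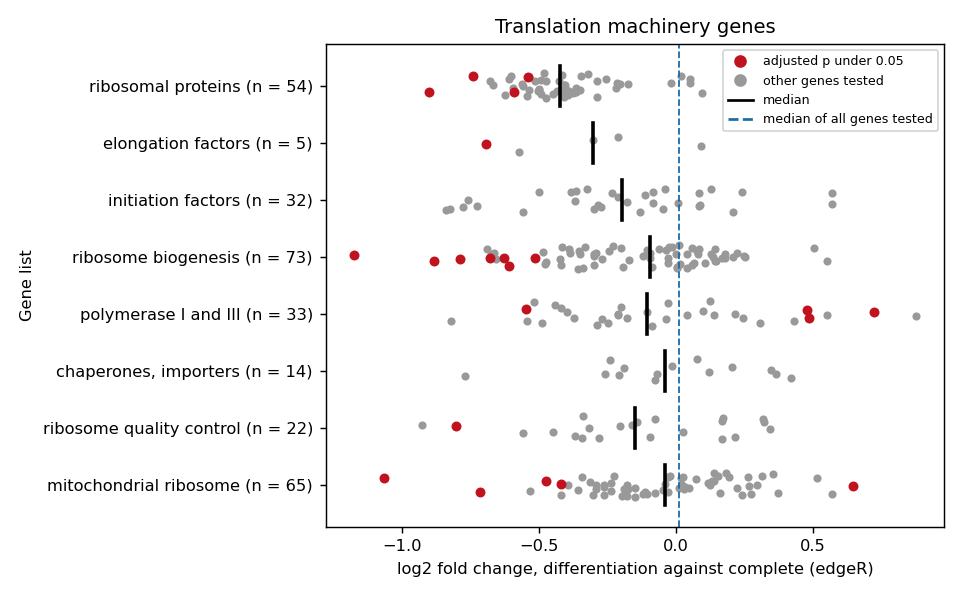
Log2 fold change (differentiation against complete medium, edgeR) of each tested gene of the ribosomal protein group and 7 lists of the translation machinery, with genes called at an adjusted p under 0.05 in red, a black bar for the median of each list and a dashed line for the median of all genes tested. The ribosomal protein genes cluster around -0.42, whereas the mitochondrial ribosomal protein genes scatter around -0.04.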

How the data were processed

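Per the labels and the study's methods, libraries were made from poly(A) RNA and sequenced on an Illumina instrument, and the authors quantified them with an nf-core pipeline and salmon on a custom pig annotation. Processing notes name Sscrofa 11.1 and GRCh 38, without roles. The study's methods name the pig genome for these bulk reads, and they name the human genome GRCh 38 under single-cell sequencing. The deposited values are estimated counts per gene row, of which 78.7% of those above 0 were whole. The methods name salmon counts scaled by gene length as input to their differential expression, and whether the deposited table holds these or unscaled counts is not given. Rows of one gene were summed and rounded, and 8 rows of transgenes (0.00142% of counts) were left out. Columns name the line and medium but no replicate number. All genes passing filterByExpr were fitted with edgeR 4.0.16 (TMM, quasi-likelihood, medium only), with DESeq2 1.42.0 as an alternative. Self-tests were run on simulated data. A replicate is a line, and 4 per medium limit the precision.

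Lines pair the libraries: deviations from the medium means correlated at 0.400 to 0.657 for the same line and at -0.479 to 0.242 for different lines (across genes, which are not independent). Members and lists were chosen with earlier results of these data known. Named genes were the stalk genes, the members with the smallest p in each direction, paralogs with parents, the members of smallest and largest spread, and set genes of each list. Genes making up counts of 5 or fewer, members described by variance share or order, and RPL14, RPL23A, RPL28, RPL36A, RPL36AL and EEF1B2 were added after their values were seen. Sequences were not analysed here, and a few genes are not reported here by name.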

Additional observations from a re-analysis of the deposited data

Results flagged for a closer look

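RPL3 in complete medium stood out by Dixon's test at the 95% level, since EPN2 had 1058 CPM while the other 3 lines lay between 1294 and 1320 CPM. The gap was 0.903 of the whole range. In differentiation medium 1 member, and in complete medium 1 member, of the 54 passed this limit, each with EPN2 lowest, where chance alone passes about 5% of groups.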

How the results depend on the processing

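The median fold change of the members was negative under all 18 alternatives, from -0.32 to -0.53. The number of members called lower was 4 in the reported fit and 2 with RLE size factors, 1 with library totals only, 1 without an expression filter, 24 with DESeq2, 34 with DESeq2 and the line as a replicate block, 11 with the block in edgeR and 19 without EPN2 in either medium, and 0 to 24 on leaving out each library. Calls over all genes numbered 1009, and 2884 with the block, 2884 with DESeq2 (an equal total with another split by direction), 5393 with DESeq2 and the block, 506 without a filter and 70 to 1199 on leaving out each library.

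Fold changes near 0 changed sign. RPLP2 (-0.02) became 0.0092 with DESeq2 and the block and 0.013 with library totals, and it lay between -0.097 and 0.082 on leaving out each library. RPS12 (0.02) became -0.11 without EPN2 in either medium, and it lay between -0.058 and 0.081 on leaving out each library, as did RPL10A (0.05) between -0.10 and 0.16. LARP1 (0.03) became -0.046 without EPN2 in either medium and lay between -0.10 and 0.10 on leaving out each library, and TPT1 (0.09) lay between -0.0072 and 0.20. None of these passed the threshold under any alternative. Of the 20 members and 29 other named genes recomputed, no others reversed. With library totals the median of all genes was 0.045, against 0.01, and the member median was -0.39. Counts summed over several gene identifiers gave no value, since no member had more than 1. The blocked fits, one with each tool, paired libraries by line. The refits that left out libraries did not block by line. Dropping rows beyond gene ends gave 5 called members and computing TMM factors without the members gave 4. The alternatives that drop EPN2 in either medium and that add the genes known by identifier were chosen after seeing the data. The limits set by depth and by the number of lines were not compared, and the cause of the differences between tools was not tested.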
